A study of Mus musculus with 88 samples.

Results

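The genes described here encode the enzymes that make, recycle and spend glutathione and those that break down peroxides and superoxide. They are the mouse genes whose symbols begin with Gst followed by a letter and a number, Mgst, Gpx followed by a number, Prdx, Sod followed by a number, or Txn, together with Cat, Nqo1, Gclc, Gclm, Gss and Gsr. A gene was taken wherever the array annotation gives a probe set that symbol alone, and its probe set with the highest mean signal stood for it. This gave 49 genes with 66 probe sets, among 8251 genes on the array. Of these, 45 passed the filter on dim probe sets and were tested together with all 5672 genes that passed. Gsta1, Gsta3, Gstm6 and Mgst2 did not pass.

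RNA came from whole mouse hearts, with 1 mouse to each of 88 Affymetrix arrays, at ages of 21, 31 and 43 days. The dKO mice carry no SR-BI, the high-density lipoprotein receptor that Scarb1 encodes, and no apolipoprotein E (SR-BI-/- apoE-/-). The HET mice (SR-BI+/- apoE-/-) keep 1 functional SR-BI allele and also lack apolipoprotein E, so no group is wild type. In order of age there were 6, 8 and 6 hearts of dKO mice given probucol, a lipid-lowering drug with antioxidant action, and 10, 10 and 12 hearts of dKO mice on chow. HET mice given probucol gave 3, 3 and 2 hearts, and HET mice on chow gave 9, 10 and 9. For replicate 2 of the dKO chow hearts at 21 days the description field names 31 days while its title, source and age fields name 21, which were followed, and leaving it out changed no call in any comparison. The design text describes dKO mice as free of detectable coronary disease at the youngest age, with small and then extensive infarcts and heart failure at the later ages, and HET mice on chow as free of it. It also reports that many dKO mice die by about the oldest age, so the hearts of that age came from survivors.

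Glutathione is a tripeptide that cells make in successive steps, of which the first, catalysed by glutamate-cysteine ligase (catalytic subunit Gclc, modifier subunit Gclm), sets the rate. Glutathione peroxidases and transferases spend it on peroxides and on reactive aldehydes, and glutathione reductase, Gsr, regenerates it with NADPH. Peroxiredoxins and thioredoxins form a parallel route, and superoxide dismutases produce the peroxide that both routes remove. In heart muscle much of this defence sits in mitochondria. Many of its genes are induced by the transcription factor Nrf2 (gene Nfe2l2) through a sequence called the antioxidant response element.

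Promoters of 5 genes are shown because they hold the core letters of that element, TGACNNNGC on either strand, yet 3 of the genes were higher and 2 lower in dKO hearts at 43 days. The windows are RefSeq sequence of assembly GRCm38.p6 and run 250 bases before to 50 bases after an annotated start, 5′ to 3′ in the direction of the gene, with the matched letters in capitals. Gclm lies on the + strand (chr3:122245307-122245606), as do Txnrd1 (chr10:82858956-82859255), Gstm5 (chr3:107895604-107895903) and Sod1 (chr16:90220512-90220811), and Txndc5 lies on the - strand (chr13:38527865-38528164).
Gclm: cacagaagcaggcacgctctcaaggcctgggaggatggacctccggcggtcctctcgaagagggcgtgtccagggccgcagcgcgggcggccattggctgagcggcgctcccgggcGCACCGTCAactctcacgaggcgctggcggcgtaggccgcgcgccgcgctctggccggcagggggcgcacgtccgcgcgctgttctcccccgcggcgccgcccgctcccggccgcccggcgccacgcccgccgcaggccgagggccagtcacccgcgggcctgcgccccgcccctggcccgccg
Txnrd1: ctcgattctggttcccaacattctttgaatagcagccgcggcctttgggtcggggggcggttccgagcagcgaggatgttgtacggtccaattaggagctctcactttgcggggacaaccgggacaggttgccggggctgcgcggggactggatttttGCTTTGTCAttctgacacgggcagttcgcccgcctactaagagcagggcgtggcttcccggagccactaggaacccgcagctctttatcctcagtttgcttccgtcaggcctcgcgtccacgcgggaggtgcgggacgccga
Txndc5: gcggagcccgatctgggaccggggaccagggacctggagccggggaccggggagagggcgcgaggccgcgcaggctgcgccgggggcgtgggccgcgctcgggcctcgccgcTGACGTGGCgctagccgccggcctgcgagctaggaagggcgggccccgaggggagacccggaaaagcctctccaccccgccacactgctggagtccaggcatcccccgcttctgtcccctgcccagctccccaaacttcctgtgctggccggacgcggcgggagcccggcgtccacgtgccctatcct
Gstm5: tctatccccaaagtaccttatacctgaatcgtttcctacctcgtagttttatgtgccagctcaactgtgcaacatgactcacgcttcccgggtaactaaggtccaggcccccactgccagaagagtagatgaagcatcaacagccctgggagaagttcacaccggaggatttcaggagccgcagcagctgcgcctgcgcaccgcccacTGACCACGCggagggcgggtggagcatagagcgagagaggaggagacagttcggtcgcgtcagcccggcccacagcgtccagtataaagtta
Sod1: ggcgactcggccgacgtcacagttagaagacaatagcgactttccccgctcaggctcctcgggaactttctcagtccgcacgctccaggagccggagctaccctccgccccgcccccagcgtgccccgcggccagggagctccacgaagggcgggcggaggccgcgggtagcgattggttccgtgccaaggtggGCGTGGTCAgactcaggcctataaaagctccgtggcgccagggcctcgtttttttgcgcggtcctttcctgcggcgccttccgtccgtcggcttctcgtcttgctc
The match begins 134 bases before the start in Gclm, 92 in Txnrd1, 138 in Txndc5, 42 in Gstm5 and 56 in Sod1. Txnrd1 and Txndc5 each have 3 windows in the table, of which the 1 shown holds a match. Of the 42 genes described here with a window in the table, 7 held a match, which is 16.7%, against 14.0% of all 27025 genes there. The other matches were in Mgst1 and Gsta3. A match is a description of letters and not a binding site.

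Values are log2 signals after a floor, with every array shifted to a common median. A difference is a log2 difference between group means with its standard error (SE), and a gene is called where the adjusted p of the limma fit over all tested genes was below 0.05. Scarb1 itself was lower in dKO hearts on chow, with group means of 6.31 to 6.48, against 7.51 to 7.68 in HET hearts on chow. Array brightness differed: the median raw signal of an array was 46.9 to 75.4 in dKO chow hearts at 43 days, against 35.4 to 75.4 in HET chow hearts of that age. With signals as deposited the median difference over all tested genes at 43 days was 0.26, against -0.09 after centring. Arrays also fell into sets of 68 and 20 on the second component of the residuals, a split found in the data that no label gives. The set of 20 held 6 of 10 dKO chow hearts and 2 of 9 HET chow hearts at 21 days, and 0 of 10 dKO chow hearts and 6 of 10 HET chow hearts at 31 days. At 43 days it held 0 of 12 dKO chow hearts and 3 of 9 HET chow hearts. Calls named as stable held with centred, as-deposited and quantile-normalised signals and with the array set in the model.

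In dKO hearts on chow at 43 days some defence genes were higher and more were lower than in HET hearts on chow. Gclc, Gclm and Gsr of glutathione synthesis and recycling, the secreted enzymes Sod3 and Gpx3, and Txn1 with its reductase Txnrd1 were among the higher ones. Lower were 8 of 12 tested glutathione transferases and, among mitochondrial enzymes, Prdx3, Sod2 and Txn2. Most other roles held genes called in both directions. Of 45 genes, 10 were higher and 20 lower, against 19.2% and 28% of all tested genes (47.2% in either direction). The split was 13 higher and 14 lower with signals as deposited, and 24 calls were stable, 10 higher and 14 lower. In whole hearts, fewer cells of a type and less RNA per cell cannot be told apart.

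**Figure D1:**
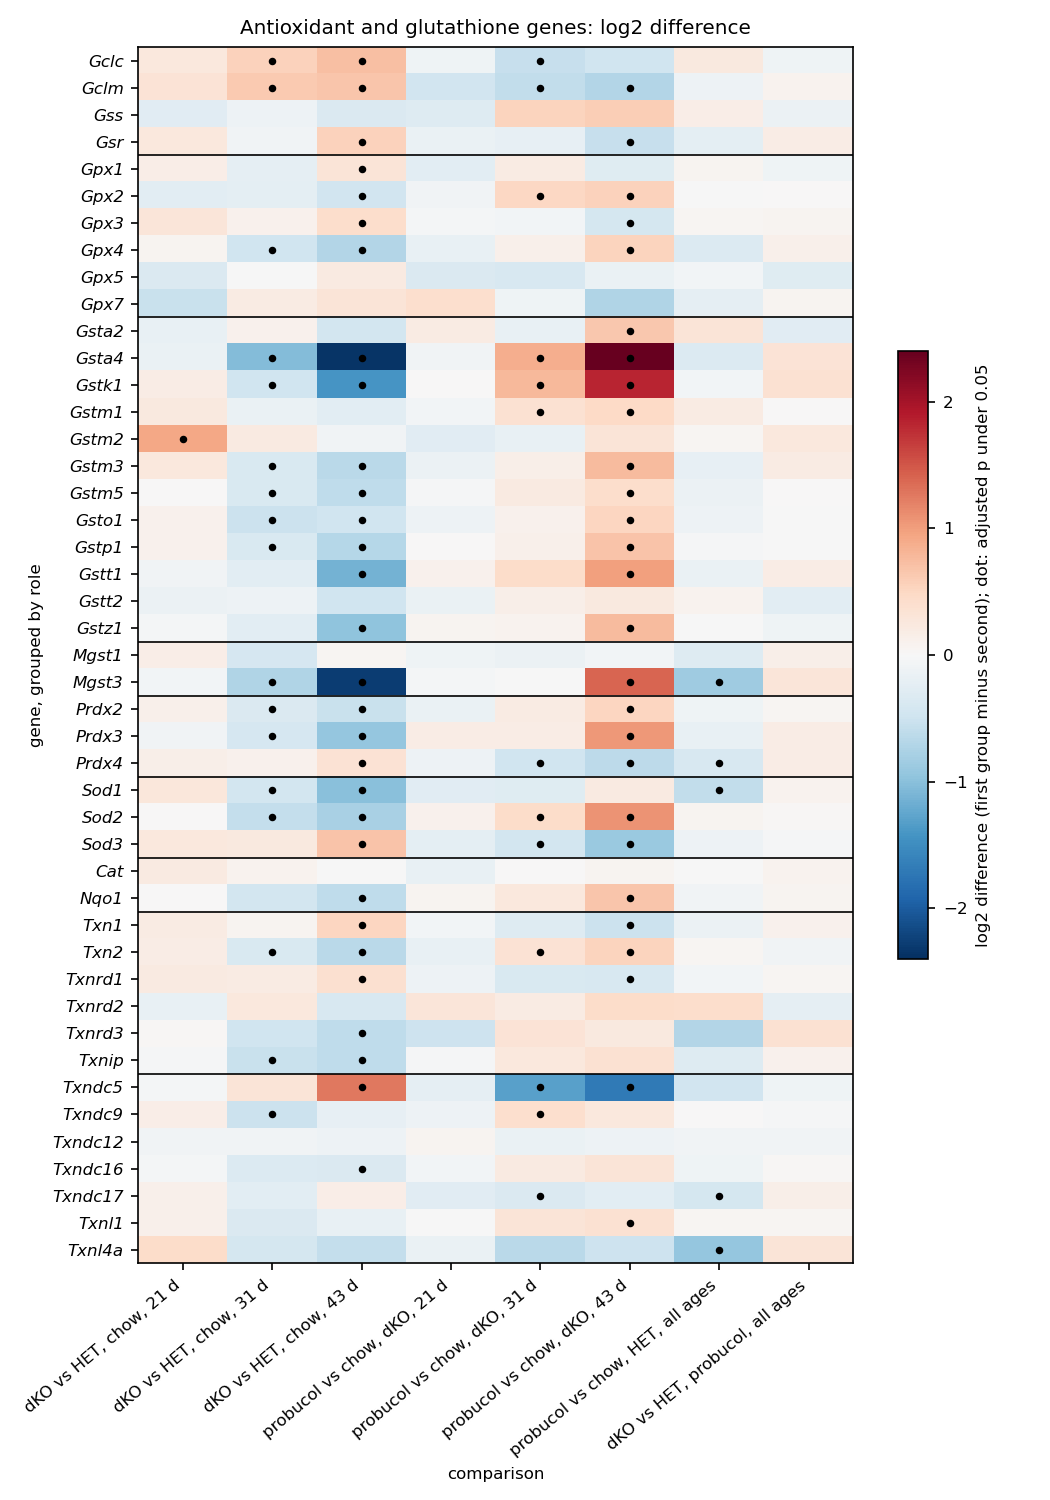
Log2 differences of the 45 tested genes, grouped by role, in part of the 13 fitted comparisons. These are dKO against HET on chow and probucol against chow in dKO at each age. Over all ages they are probucol against chow in HET and dKO against HET on probucol. Red marks where the first group named was higher and blue where it was lower, with a dot where the adjusted p was below 0.05. The colour scale ends below the largest difference, 2.77 for Gsta4 on probucol in dKO hearts at 43 days. In dKO against HET hearts on chow 1, 17 and 30 genes carry a dot at 21, 31 and 43 days, and the split by direction at 31 days turned when signals were not centred.

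Genes of synthesis and recycling gave 3 higher and 0 lower of 4 tested. Gclm had a lowest, median and highest log2 signal of 6.47, 6.87 and 7.24 in dKO chow hearts at 43 days, against 5.94, 6.24 and 6.46 in HET chow hearts, so the groups did not overlap (difference 0.66 ± 0.18, adjusted p = 0.00136). Such separation was seen for 5 of the 45 genes, and for 8.16% of all tested genes. Gclc had 6.06, 6.41 and 6.95 in dKO hearts, against 5.01, 5.78 and 6.26 in HET hearts, a 1.65-fold higher level (0.72 ± 0.18, adjusted p = 0.000436). Gsr had 7.02, 7.35 and 7.91 in dKO hearts, against 6.35, 6.90 and 7.42 in HET hearts (0.55 ± 0.13, adjusted p = 0.000181). The Gclc and Gsr groups overlapped in part, and all 3 calls were stable. Gss, which adds glycine in the last step, was not called, at 6.80 ± 0.34 in 12 dKO hearts and 7.14 ± 0.63 in 9 HET hearts (SD).

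**Figure D2:**
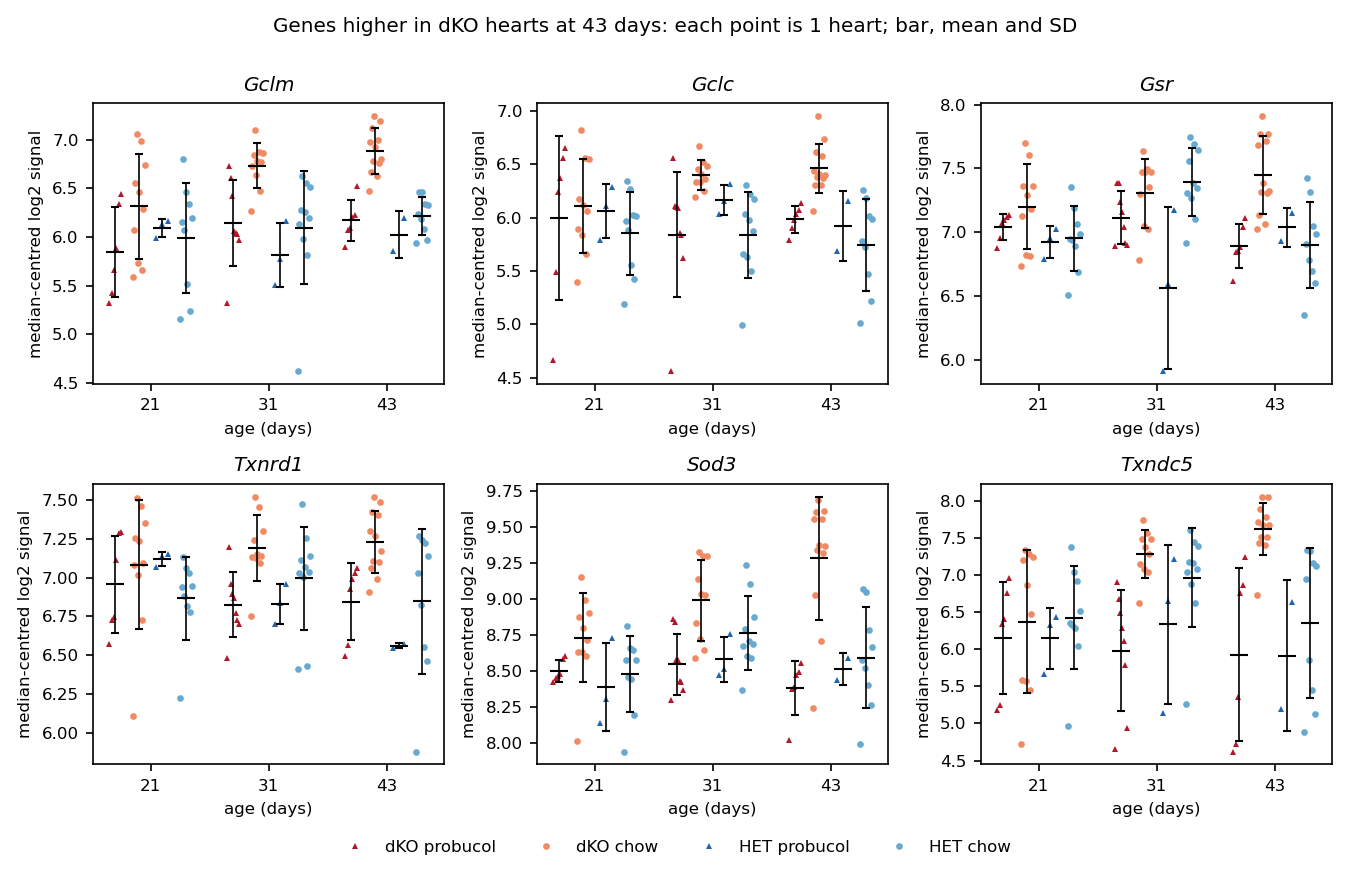
Median-centred log2 signal (y axis) by age in days (x axis) for 6 genes higher in dKO chow hearts at 43 days, with 1 point per heart, bars for mean and SD, and groups in the order dKO probucol, dKO chow, HET probucol, HET chow. At 43 days all 12 dKO chow hearts lay above every HET chow heart for Gclm, and Txndc5 averaged 7.62 in dKO chow hearts, against 6.35 in HET chow hearts.

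Glutathione transferases, which couple glutathione to reactive molecules, gave 0 higher and 8 lower of 12 tested at 43 days. Gsta4, the transferase for the lipid peroxidation product 4-hydroxynonenal, had 2.84, 3.66 and 5.65 in dKO chow hearts, against 4.87, 6.18 and 6.77 in HET chow hearts, a 5.08-fold lower level (-2.34 ± 0.27, adjusted p = 4.93e-12). Gstk1, of mitochondria and peroxisomes, had 6.34, 6.87 and 7.82 in dKO hearts, against 7.63, 8.33 and 8.87 in HET hearts (-1.41 ± 0.15, adjusted p = 1.44e-13). For both genes the highest dKO hearts reached into the HET range. Gstz1, which also isomerises an intermediate of tyrosine breakdown, had 6.60, 6.97 and 7.26 in dKO hearts, against 7.51, 7.90 and 8.22 in HET hearts, with no overlap (-0.96 ± 0.11, adjusted p = 7.88e-12).

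The other called transferases were Gstt1 (-1.14 ± 0.24), Gstp1 (-0.68 ± 0.11), Gstm3 (-0.65 ± 0.11), Gstm5 (-0.61 ± 0.08) and Gsto1 (-0.47 ± 0.13), and of these the Gsto1 call was lost with signals as deposited. Gsta2, Gstm1, Gstm2 and Gstt2 were not called, with differences of -0.44, -0.25, -0.08 and -0.47, and the sign of Gstm1 (0.10) and Gstm2 (0.27) turned with signals as deposited. In the RefSeq gene order Gstm3, Gstm2 and Gstm1 are direct neighbours, and 4 protein-coding genes lie between Gclc, which was higher in dKO hearts, and Gsta4, which was lower. The chosen probe sets of Gstm1, Gstm3 and Gstm5 carry a suffix that Affymetrix gives to sets shared by related transcripts, so their signals may not be separate. The 3 other Gstm5 probe sets differed by -0.73 to -1.23 at 43 days, all lower in dKO hearts.

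The microsomal transferases gave 0 higher and 1 lower of 2 tested. Mgst3, a membrane enzyme with transferase and peroxidase activity, had 7.76, 8.46 and 8.88 in dKO chow hearts at 43 days, against 9.91, 10.71 and 11.51 in HET chow hearts. That gap was a 4.87-fold lower level with no overlap (-2.28 ± 0.18, adjusted p = 3.9e-19), and its p was the smallest of the 45 genes in this comparison. Mgst1, a transferase of the endoplasmic reticulum and outer mitochondrial membrane, averaged 7.68 ± 0.39 in 12 dKO hearts and 7.64 ± 0.47 in 9 HET hearts (SD), and the 95% interval of its difference was -0.31 to 0.39. A second Mgst3 probe set was at the floor on 55 of 88 arrays.

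**Figure D3:**
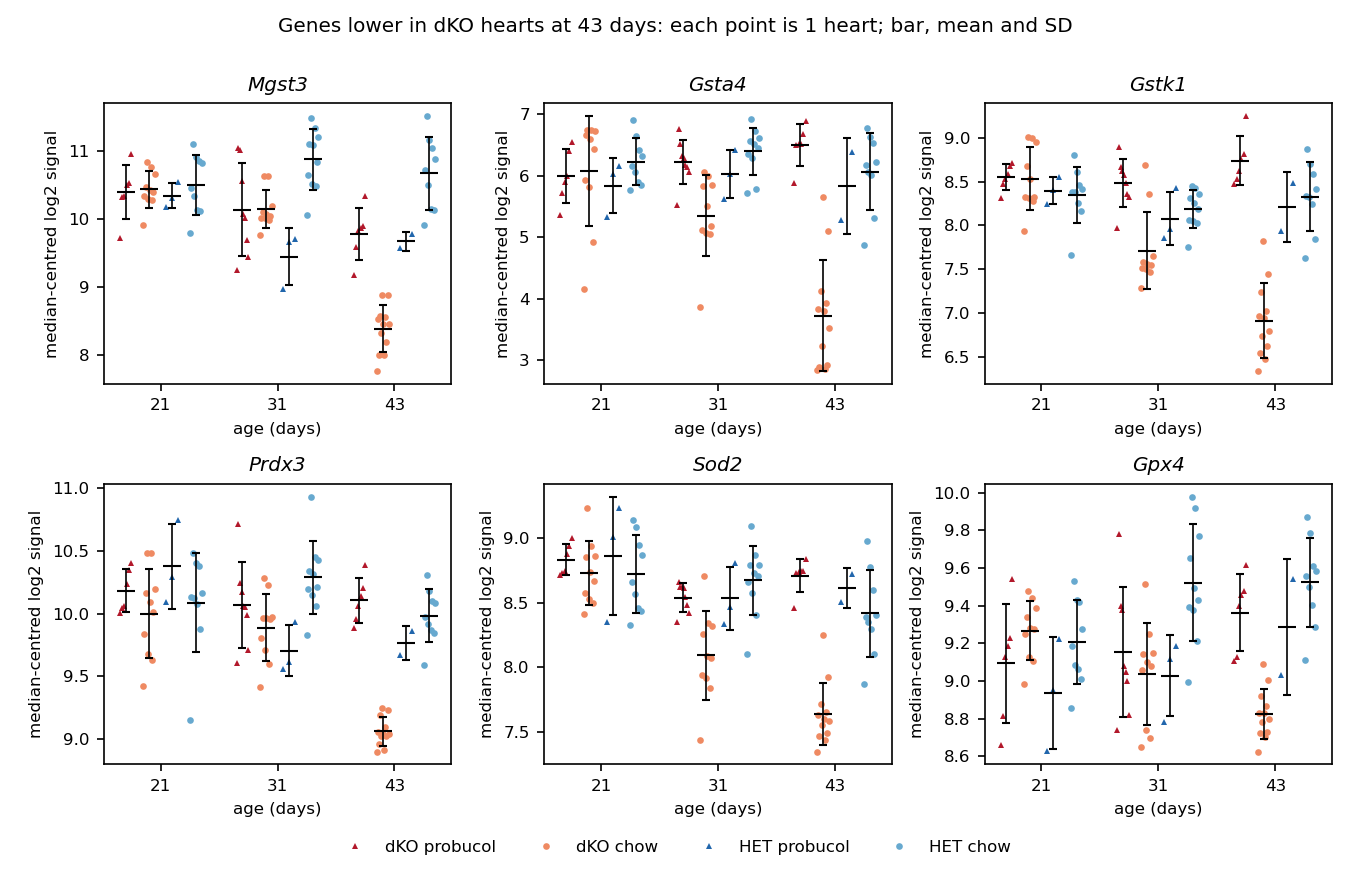
Median-centred log2 signal (y axis) by age in days (x axis) for 6 genes lower in dKO chow hearts at 43 days, with 1 point per heart, bars for mean and SD, and groups in the order dKO probucol, dKO chow, HET probucol, HET chow. At 43 days the dKO chow hearts lay below every HET chow heart for Mgst3, Prdx3 and Gpx4, and Gsta4 averaged 3.73 in dKO chow hearts, against 6.07 in HET chow hearts.

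The peroxidases split, with 2 higher and 2 lower of 6 tested. Gpx4, the peroxidase of membrane lipid hydroperoxides, had 8.63, 8.82 and 9.09 in dKO chow hearts at 43 days, against 9.11, 9.56 and 9.87 in HET chow hearts, a narrow separation (-0.70 ± 0.11, adjusted p = 1.03e-07). Gpx3, the plasma form, was higher in dKO hearts at 11.41 ± 0.27, against 10.99 ± 0.44 in HET hearts (SD; 0.41 ± 0.15, adjusted p = 0.0178), as was the widespread Gpx1 (0.32 ± 0.12, adjusted p = 0.0199). Gpx2, best known from gut epithelium, was lower (-0.46 ± 0.13, adjusted p = 0.00297) but not called with signals as deposited. Gpx5 and Gpx7 were not called (0.21 ± 0.29 and 0.31 ± 0.33).

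Among peroxiredoxins, Prdx3 of the mitochondrial matrix had 8.90, 9.04 and 9.25 in dKO chow hearts at 43 days, against 9.59, 9.97 and 10.31 in HET chow hearts, with no overlap (-0.92 ± 0.12, adjusted p = 4.24e-10). Prdx2 of the cytosol had 10.20, 10.43 and 10.83 in dKO hearts, against 10.55, 11.07 and 11.24 in HET hearts (-0.54 ± 0.09, adjusted p = 6.67e-07). A second Prdx2 probe set, never at the floor, differed by 0.01, so the probe sets of this gene disagree. Prdx4 of the endoplasmic reticulum went the other way, with 7.12, 7.43 and 7.98 in dKO hearts, against 6.61, 7.13 and 7.45 in HET hearts (0.36 ± 0.12, adjusted p = 0.00977). The Prdx2 and Prdx4 groups overlapped.

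The superoxide dismutases gave 1 higher and 2 lower of 3 tested. Sod2 of mitochondria had 7.35, 7.60 and 8.25 in dKO chow hearts at 43 days, against 7.87, 8.39 and 8.98 in HET chow hearts (-0.78 ± 0.12, adjusted p = 2.8e-08). Sod1 of the cytosol had 8.17, 8.53 and 9.36 in dKO hearts, against 9.06, 9.45 and 10.33 in HET hearts (-1.01 ± 0.17, adjusted p = 4.44e-07). Sod3, the extracellular form, was higher, with 8.24, 9.37 and 9.69 in dKO hearts, against 8.00, 8.58 and 9.07 in HET hearts (0.69 ± 0.13, adjusted p = 3.71e-06). All 3 calls were stable, and all 3 pairs of groups overlapped.

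Catalase, Cat, which splits hydrogen peroxide in peroxisomes, averaged 7.68 ± 0.21 in dKO chow hearts and 7.69 ± 0.26 in HET chow hearts at 43 days (SD). Its difference of -0.01 ± 0.11 became 0.34 with signals as deposited, and its second probe set differed by -0.37. The chosen Cat probe set carries the suffix for sets shared by related transcripts, and the second does not. For probucol against chow in dKO hearts at 43 days the chosen set differed by 0.06 and the second by 0.49. Nqo1, the quinone reductase often used as an Nrf2 readout, was lower (-0.62 ± 0.19, adjusted p = 0.00531), though not called with signals as deposited.

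The thioredoxin system gave 2 higher and 3 lower of 6 tested. Txn1, cytosolic thioredoxin, had 9.12, 9.44 and 10.10 in dKO chow hearts at 43 days, against 8.39, 9.01 and 9.56 in HET chow hearts (0.52 ± 0.13, adjusted p = 0.000615), and Txnrd1, its reductase, was higher by 0.38 ± 0.13, adjusted p = 0.0136. Txn2, mitochondrial thioredoxin, had 8.52, 8.93 and 9.22 in dKO hearts, against 8.92, 9.57 and 9.94 in HET hearts (-0.64 ± 0.11, adjusted p = 1.09e-06). Its reductase Txnrd2 was not called (-0.39 ± 0.21, 95% interval -0.81 to 0.03). Txnip, a thioredoxin-binding inhibitor, and Txnrd3, a reductase best known from testis, were lower, with differences of -0.61 ± 0.15 and -0.62 ± 0.27, and neither call was stable. A second Txnip probe set, never at the floor, differed by -0.05, so the probe sets of this gene disagree. For probucol against chow in dKO hearts at 43 days the chosen Txnip set differed by 0.36 and the second by 0.15.

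Proteins with a thioredoxin domain gave 1 higher and 1 lower of 7 tested. Txndc5, a disulfide isomerase of the endoplasmic reticulum, had 6.73, 7.67 and 8.05 in dKO chow hearts at 43 days, against 4.89, 6.95 and 7.33 in HET chow hearts, a 2.4-fold higher level (1.26 ± 0.32, adjusted p = 0.000762). That fold is of the group means, 7.62 and 6.35, and the HET mean lay below the HET median, so the medians were closer together. Txndc16 was lower (-0.35 ± 0.13), a difference of 0.0012 with signals as deposited. Txndc9, Txndc12, Txndc17, Txnl1 and the splicing factor Txnl4a were not called, with differences of -0.20, -0.12, 0.16, -0.17 and -0.56, and the signs of Txndc9, Txndc12 and Txnl1 turned with signals as deposited.

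Grouped by the compartment each protein is known from, a grouping made after the values were seen, the 4 genes of the mitochondrion alone (Prdx3, Sod2, Txn2 and Txnrd2) had a median difference of -0.71, with 0 higher and 3 lower. Over all tested genes the median was -0.09, with 19.2% higher and 28% lower. The 5 genes of both cytosol and mitochondrion (Gsr, Gpx1, Gpx4, Gsta4 and Gstz1) had 2 higher and 3 lower. The 3 secreted enzymes (Sod3, Gpx3 and Gpx5) had a median of 0.41, with 2 higher and 0 lower. Among 5 proteins placed in the endoplasmic reticulum 2 were higher and 1 lower. The microsomal transferases Mgst1 and Mgst3 were counted apart from these as membrane proteins, with 0 higher and 1 lower of 2 tested. Among 23 tested cytosolic proteins 4 were higher and 11 lower. No test of compartment or role was run.

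At 21 days few of these genes differed. Of 45 genes 1 was called, higher, against 4.07% of all tested genes higher and 0.917% lower (4.99% in either direction). That gene was Gstm2, a mu-class transferase, with 6.74, 8.70 and 9.06 in dKO chow hearts, against 6.95, 7.38 and 8.08 in HET chow hearts, groups that overlapped (0.93 ± 0.23, adjusted p = 0.00614). It was not called with signals as deposited, with the mean of its probe sets or in the 21-day groups alone, and within the larger array set its difference was 0.31.

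At 31 days 2 were higher and 15 lower, against 8.27% and 23% of all tested genes (31.3% in either direction). This split depended on scaling, being 8 higher and 1 lower with signals as deposited and 6 higher and 8 lower after quantile normalisation, and within the larger array set it was 1 higher and 3 lower. Gclm and Gsta4 were the stable calls. Gclm had 6.27, 6.78 and 7.10 in dKO chow hearts at 31 days, against 4.62, 6.22 and 6.63 in HET chow hearts (0.64 ± 0.18, adjusted p = 0.00477). Gsta4 had 3.86, 5.34 and 6.06 in dKO hearts, against 5.72, 6.49 and 6.93 in HET hearts (-1.04 ± 0.27, adjusted p = 0.00209), although within the larger array set it was not called, at -0.94. Both genes overlapped between the groups. Gclc was higher by 0.56 ± 0.18, and on the centred scale the differences were -0.58 ± 0.12 for Sod2, -0.48 ± 0.11 for Gpx4 and -0.73 ± 0.18 for Mgst3. The 11 other lower calls were Gstm5 (-0.37), Txndc9 (-0.52), Gsto1 (-0.52), Prdx2 (-0.35), Txnip (-0.54), Gstp1 (-0.37), Prdx3 (-0.40), Txn2 (-0.37), Gstm3 (-0.36), Gstk1 (-0.47) and Sod1 (-0.44).

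The genotype difference itself changed between 21 and 43 days for 20 genes, 1 upward and 19 downward, against 9.61% and 23.5% of all tested genes (33.1% in either direction). Without centring the split was 14 higher and 4 lower, and 5 calls were stable. These were Mgst3 (change in the difference -2.22 ± 0.26, adjusted p = 8.44e-11), Gstk1 (-1.60 ± 0.21), Gsta4 (-2.19 ± 0.39), Sod1 (-1.28 ± 0.24) and, upward, Txndc5 (1.32 ± 0.47, adjusted p = 0.0228). Mgst3 in dKO chow hearts averaged 10.43, 10.14 and 8.38 at 21, 31 and 43 days, and in HET chow hearts 10.50, 10.87 and 10.66. Gsta4 averaged 6.08, 5.35 and 3.73 in dKO hearts, and 6.23, 6.40 and 6.07 in HET hearts. Between 21 and 31 days the difference moved downward for 11 genes and upward for 0, against 20.9% and 4.27% of all tested genes (25.1% in either direction), but none of the 11 was called after quantile normalisation, with the array set in the model or with signals as deposited.

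Age alone moved few of these genes. In HET chow hearts at 43 against 21 days 2 were higher and 1 lower, against 0.934% and 1.69% of all tested genes (2.63% in either direction). Mgst1 had 6.93, 7.57 and 8.67 at 43 days, against 5.79, 6.67 and 6.99 at 21 days (1.09 ± 0.19, adjusted p = 8.07e-05). Nqo1 had 6.13, 6.87 and 7.52 at 43 days, against 5.07, 6.13 and 6.93 at 21 days (0.77 ± 0.21, adjusted p = 0.0244). Txn1 was lower (-0.56 ± 0.14, adjusted p = 0.0144), a call lost with signals as deposited, where 15 genes were called higher. The ages overlapped for all 3 genes.

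Probucol in dKO mice left these genes without a call at 21 days, where 0 of 45 passed in the limma fit, against 0.0705% of all tested genes higher and 1.22% lower (1.29% in either direction), and 2 had an unadjusted p below 0.05, Gclm (-0.47 ± 0.21) and Txndc17 (-0.28 ± 0.13). At 31 days 7 were higher on probucol and 6 lower, against 7.95% and 11.4% of all tested genes (19.4% in either direction). Gstk1 had 7.97, 8.53 and 8.89 on probucol, against 7.28, 7.55 and 8.69 on chow, groups that overlapped (0.77 ± 0.16, adjusted p = 0.000176). Lower were Gclm (-0.59 ± 0.19), Gclc (-0.56 ± 0.19), Txndc5 (-1.30 ± 0.35), Prdx4 (-0.48 ± 0.13), Sod3 (-0.44 ± 0.14) and Txndc17 (-0.34 ± 0.12). These 7 calls were stable. The other 6 higher calls were Sod2 (0.45), Gpx2 (0.50), Txndc9 (0.39), Gsta4 (0.87), Txn2 (0.35) and Gstm1 (0.36), and the split over all 45 genes was 1 higher and 12 lower with signals as deposited.

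At 43 days dKO hearts on probucol differed from dKO hearts on chow in 27 genes, 19 higher and 8 lower, against 21.3% and 17% of all tested genes (38.2% in either direction). This comparison shares its 12 chow hearts with the genotype comparison of that age, so opposite signs across the pair are not separate evidence. With signals as deposited the split was 8 higher and 15 lower, and 16 calls were stable, 8 in each direction. Gsta4 had 5.88, 6.51 and 6.89 on probucol, against 2.84, 3.66 and 5.65 on chow, a 6.83-fold higher level (2.77 ± 0.30, adjusted p = 1.84e-12). Gstk1 had 8.47, 8.69 and 9.25 on probucol, against 6.34, 6.87 and 7.82 on chow (1.82 ± 0.17, adjusted p = 1.35e-15). Neither gene overlapped between the diets. Of the 45 genes 11 did not overlap, 10 higher and 1 lower, against 14.5% of all tested genes.

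Mitochondrial Prdx3 and Sod2 and the membrane enzyme Mgst3 were among those separated. Prdx3 had 9.89, 10.10 and 10.39 on probucol, against 8.90, 9.04 and 9.25 on chow in dKO hearts at 43 days (1.05 ± 0.14, adjusted p = 6.84e-10). Sod2 had 8.46, 8.74 and 8.83 on probucol, against 7.35, 7.60 and 8.25 on chow (1.07 ± 0.13, adjusted p = 1.3e-10). Mgst3 had 9.17, 9.84 and 10.34 on probucol, against 7.76, 8.46 and 8.88 on chow (1.40 ± 0.20, adjusted p = 1.96e-08). None of the 3 overlapped between the diets. Mitochondrial Txnrd2 overlapped and was not called (0.43 ± 0.24, adjusted p = 0.156). Gstz1, Gstm3 and Gstp1 completed the stable higher calls, at 0.76 ± 0.13, 0.76 ± 0.13 and 0.69 ± 0.12. The 11 other higher calls, which were not stable, were Prdx2 (0.51), Gstm5 (0.42), Gpx4 (0.54), Txn2 (0.54), Gstm1 (0.49), Gsto1 (0.52), Gpx2 (0.55), Gstt1 (0.99), Nqo1 (0.67), Gsta2 (0.64) and Txnl1 (0.37).

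On the lower side in the same hearts were Gclm (-0.71 ± 0.20) and Gsr (-0.56 ± 0.14) of glutathione synthesis and recycling, and the secreted Sod3 (-0.90 ± 0.14) and Gpx3 (-0.42 ± 0.17). Txn1 (-0.51 ± 0.15) and Txnrd1 (-0.38 ± 0.15) were lower too, as were Prdx4 (-0.64 ± 0.13) and Txndc5 (-1.69 ± 0.37) of the endoplasmic reticulum. Gclc was not called (-0.48 ± 0.20, adjusted p = 0.0515), nor was Sod1 (0.21 ± 0.19, 95% interval -0.16 to 0.59).

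Set directly against HET hearts on chow at 43 days, dKO hearts on probucol differed in 2 of the 45 genes, both lower, against 0.317% of all tested genes higher and 0.458% lower (0.776% in either direction). Mgst3 had 9.17, 9.84 and 10.34 in dKO probucol hearts, against 9.91, 10.71 and 11.51 in HET chow hearts (-0.89 ± 0.22, adjusted p = 0.0296). Sod1 had 8.36, 8.57 and 9.65 in dKO probucol hearts, against 9.06, 9.45 and 10.33 in HET chow hearts (-0.80 ± 0.20, adjusted p = 0.0332). Both overlapped between the groups, and neither was called with the array set in the model, within the larger array set or in these groups fitted alone.

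In HET mice probucol was followed by lower signal of 5 of the 45 genes and higher signal of 0, taken as the mean over the 3 ages, against 2.26% and 0.406% of all tested genes (2.66% in either direction). Sod1 had 9.79, 10.06 and 9.87 in the HET probucol hearts at 21 days, 8.48, 8.52 and 8.63 at 31 days, and 8.90 and 8.69 at 43 days. In HET chow hearts Sod1 spanned 9.12 to 10.20 at 21 days, 9.33 to 10.07 at 31 days and 9.06 to 10.33 at 43 days. The diets were therefore apart at the 2 later ages and overlapped at 21 days, with a mean difference of -0.60 ± 0.16, adjusted p = 0.0202. Mgst3 had 10.16, 10.53 and 10.31 on probucol at 21 days, 9.71, 9.65 and 8.96 at 31 days, and 9.77 and 9.57 at 43 days, and its HET chow hearts spanned 9.79 to 11.10, 10.05 to 11.48 and 9.91 to 11.51 at those ages. Again only the later ages were apart (-0.86 ± 0.17, adjusted p = 0.00101). Groups of 2 or 3 hearts can lie apart easily. The share of all tested genes whose diets were apart in HET hearts was not counted, here or for the genes below.

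Txnl4a had 7.10, 7.61 and 6.55 in HET probucol hearts at 21 days, 4.89, 6.06 and 5.15 at 31 days, and 6.44 and 5.14 at 43 days, against HET chow spans of 5.62 to 7.95, 6.42 to 7.70 and 5.52 to 7.49 (-0.92 ± 0.23, adjusted p = 0.0122). Txndc17 (-0.42 ± 0.10, adjusted p = 0.0118) and Prdx4 (-0.39 ± 0.11, adjusted p = 0.0311) were lower by smaller amounts, and for all 3 genes the diets were apart at 31 days only. These groups are small: without HET probucol replicate 2 at 43 days 1 of the 5 genes, Mgst3, was still called, at -0.83. Without replicate 3 at 21 days Txnl4a (-0.83) and Prdx4 (-0.36) were not called, and within the larger array set Sod1 (-0.61) and Prdx4 (-0.32) were not. Prdx4 was also not called with signals as deposited (-0.40), after quantile normalisation (-0.34) or with the array set in the model (-0.33). Nor was it called without replicate 2 or without replicate 3 at 31 days (-0.38 in each).

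**Figure D4:**
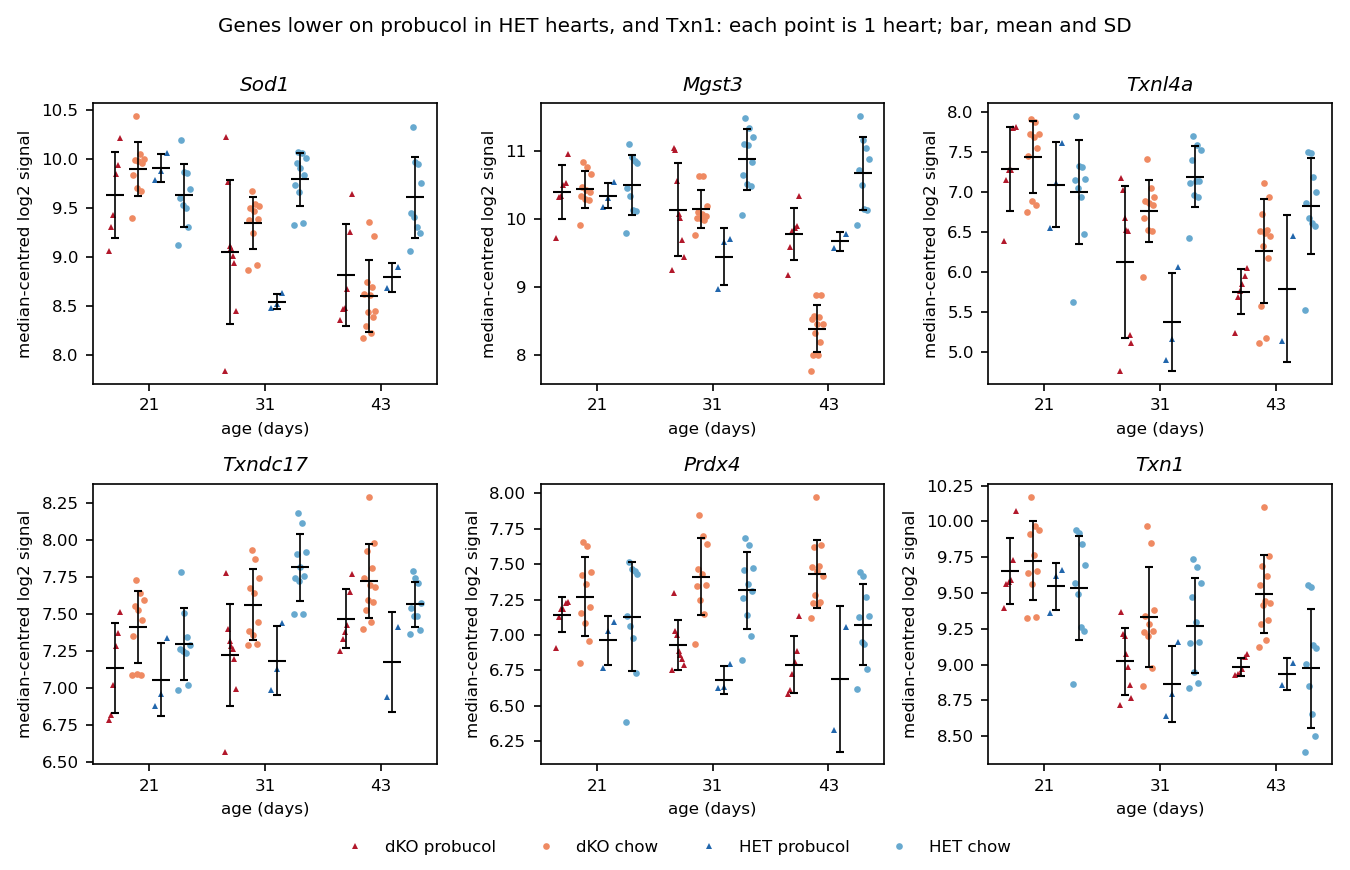
Median-centred log2 signal (y axis) by age in days (x axis) for the 5 genes lower on probucol in HET hearts and for Txn1, with 1 point per heart, bars for mean and SD, and groups in the order dKO probucol, dKO chow, HET probucol, HET chow. Sod1 at 31 days averaged 8.54 in 3 HET probucol hearts, against 9.79 in 10 HET chow hearts.

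The effect of probucol differed between genotypes for 12 genes over the 3 ages, 10 with a more positive effect in dKO hearts and 2 with a more negative one, against 10.9% and 8.71% of all tested genes (19.6% in either direction). With signals as deposited the split was 6 more positive and 3 more negative, and the stable calls were 6 more positive and 2 more negative. Mgst3 had the smallest p (1.31 ± 0.20, adjusted p = 7.06e-07), Gstk1 and Gsta4 differed by 0.93 ± 0.17 and 1.52 ± 0.30, and Gclc (-0.62 ± 0.20) and Sod3 (-0.41 ± 0.14) were the 2 negative ones. Between dKO and HET hearts that both received probucol 0 of 45 genes were called by limma, against 0.0353% of all tested genes in each direction (0.0705% in either), and 1 had an unadjusted p below 0.05, Gstk1 (0.36 ± 0.14, 95% interval 0.08 to 0.64). Mgst3 averaged 9.77 in 6 dKO hearts and 9.67 in 2 HET hearts on probucol at 43 days, and Gclm averaged 6.17 and 6.02 in the same order.

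Genes that feed or accompany these enzymes were counted as lists in dKO against HET chow hearts at 43 days. In that comparison 19.2% of all tested genes were higher and 28% lower. Of 17 other genes linked to Nrf2, 6 were higher and 2 lower. Hmox1, which degrades haem, differed by 2.21 ± 0.13, Mt2, a metallothionein, by 1.71 ± 0.20, Slc3a2, a subunit of the cystine transporter, by 0.64 ± 0.12, and Bach1, a repressor at the same element, by 1.78 ± 0.30. Of 7 genes that supply NADPH 3 were higher and 3 lower. Pgd and Tkt of the pentose phosphate pathway were higher (0.99 ± 0.09 and 1.29 ± 0.18), and Idh2 and Nnt of mitochondria were lower (-1.30 ± 0.12 and -1.02 ± 0.16).

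Of 8 genes that use glutathione or repair its targets 0 were higher and 3 lower in the same comparison, Ggct (-0.81 ± 0.15), the glyoxalase Glo1 (-0.70 ± 0.17) and Msrb1 (-0.36 ± 0.12), a methionine sulfoxide reductase. The superoxide-producing NADPH oxidase gave 3 higher and 0 lower of 4, with its membrane subunits Cybb at 2.09 ± 0.31 and Cyba at 1.33 ± 0.13. Of 8 muscle genes linked to PPARalpha, a regulator of fatty acid use, 1 was higher and 7 lower, including the dehydrogenase Acadm (-1.16 ± 0.15). On probucol against chow in dKO hearts at 43 days the counts of higher and lower genes were 2 and 5 for the Nrf2 list, 3 and 2 for NADPH supply, 4 and 0 for glutathione use, 0 and 3 for the oxidase, and 6 and 0 for the PPARalpha list. The lists had the same sizes as above, and of all tested genes 21.3% were higher and 17% lower in that comparison. Hmox1 was lower there by -2.37 ± 0.14 and Nnt higher by 1.83 ± 0.18. In HET hearts probucol gave 0 calls in limma on these 5 lists, against 0.406% of all tested genes higher and 2.26% lower.

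Cell type markers moved in the same comparisons. In dKO against HET chow hearts at 43 days 19.2% of all tested genes were higher and 28% lower. All 7 cardiomyocyte markers were lower in dKO chow hearts than in HET chow hearts at 43 days, with a median difference of -0.69 and a summed raw signal of 17723 to 32806, against 23777 to 49370 in HET hearts. All 8 tested macrophage markers were higher. Raw sums over 9 macrophage genes, which include genes not tested, were 6846 to 11882 in dKO hearts, against 907 to 1556 in HET hearts. The sums are not centred, and array brightness differed between hearts. Of 8 fibroblast and matrix markers 6 were higher and 1 lower, and of 4 neutrophil markers 2 were higher and 1 lower. All 3 tested erythroid markers were higher. Raw sums over 4 erythroid genes were 6795 to 15125 in dKO hearts, against 2103 to 5537 in HET hearts. Endothelial markers gave 1 higher and 0 lower of 6, smooth muscle markers 0 and 2 of 4, and adipocyte markers 0 and 1 of 3. In dKO probucol hearts of that age the macrophage sums were 1360 to 1669 and the cardiomyocyte sums 36003 to 49846. No marker was at the floor in most arrays of a group. The part of these cells in the differences of the antioxidant genes was not tested.

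The 4 genes left out as dim were not tested, though some differed between groups. Gsta1 was at the floor on 67 of 88 arrays. Gstm6 had 2.09, 2.67 and 4.22 in dKO chow hearts at 43 days, against 2.24, 5.07 and 5.61 in HET chow hearts, a difference of -1.45. Probucol against chow in dKO hearts of that age gave 1.48 for Gstm6. Gsta3 averaged 4.67 ± 0.53 in dKO chow hearts and 5.13 ± 1.08 in HET chow hearts (SD). In dKO probucol hearts it averaged 5.81, with no overlap with dKO chow hearts, a separation seen for 14.5% of all tested genes. Mgst2 averaged 4.41 ± 0.35 in dKO chow hearts and 4.11 ± 0.37 in HET chow hearts (SD).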

How the data were processed

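RNA of 88 whole mouse hearts was measured on Affymetrix arrays of 12488 probe sets. The deposited values are linear signal intensity per probe set, made by the authors with MAS5, per the submitters' processing notes; the sources used here name no scaling between arrays. Median array signals of 27.8 to 75.4 and the number of arrays limit the precision, and no array pair had identical values. Labels do not give the sex or litter of the mice.

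Signals were floored at their 10th percentile (4.22), converted to log2 and shifted to a common array median. Of the probe sets, 10833 carry 1 gene symbol in the platform annotation and 396 several, which were not named. The highest-mean probe set stood for a gene, and the upper 60% of probe sets by mean were tested. limma 3.58.1 in R 4.3.3 fitted 12 group means with an intensity trend (lmFit, contrasts.fit and eBayes) and 13 comparisons, with Benjamini-Hochberg adjustment over 5672 genes. The fit was tested on simulated data. Text values and counts came from the same tables (Python 3.11.15, pandas 2.3.3), and figures from matplotlib 3.10.9.

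Every gene found by the rule is named, with full statistics for up to 10 per comparison by smallest p and for peroxiredoxins, dismutases, peroxidases and thioredoxins by role; of other lists up to 4 genes by smallest p at 43 days were eligible. The members and lists were chosen with earlier results of these data known. Alternatives changed the scaling, floor, filter, probe set rule, trend, groups fitted, covariates and arrays. Replicate numbers did not pair the mice: residuals of same-numbered hearts correlated at -0.31 to 0.38, with a median of 0.0056 over 358 pairs.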

Additional observations from a re-analysis of the deposited data

Results flagged for a closer look

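Among 360 sets of 4 to 10 hearts, 1 for each tested gene and group of that size, 27 had a highest or lowest heart whose gap to its nearest neighbour exceeded the 95% critical value of Dixon's test, and chance alone gives about 5%. The 12 dKO chow hearts at 43 days and the HET probucol groups of 2 or 3 hearts were outside that size and were not looked at. Replicate 1 of the dKO chow hearts at 31 days held 5 of them. Values are log2 signals. In dKO chow hearts at 21 days the distant value was 4.31 for Gsta2 (lowest, replicate 3), 9.86 for Gstm1 (lowest, replicate 7), 3.99 for Gstt1 (lowest, replicate 4) and 8.01 for Sod3 (lowest, replicate 9). In dKO chow hearts at 31 days the distant value was 6.67 for Gpx1 (lowest, replicate 1), 11.68 for Gpx3 (highest, replicate 1), 4.62 for Gss (lowest, replicate 1), 5.43 for Gsta2 (lowest, replicate 2), 3.86 for Gsta4 (lowest, replicate 4), 7.47 for Gsto1 (lowest, replicate 6), 4.11 for Gstt1 (lowest, replicate 5), 9.66 for Txn2 (highest, replicate 1) and 8.97 for Txnrd3 (highest, replicate 1). In dKO probucol hearts at 21 days the distant value was 6.91 for Prdx4 (lowest, replicate 1). In dKO probucol hearts at 31 days the distant value was 4.56 for Gclc (lowest, replicate 2) and 8.29 for Txnip (lowest, replicate 6). In dKO probucol hearts at 43 days the distant value was 2.51 for Gpx7 (lowest, replicate 1), 8.46 for Sod2 (lowest, replicate 4) and 8.03 for Sod3 (lowest, replicate 5). In HET chow hearts at 21 days the distant value was 7.19 for Cat (lowest, replicate 1), 5.40 for Gss (lowest, replicate 1), 9.15 for Prdx3 (lowest, replicate 2) and 6.23 for Txnrd1 (lowest, replicate 2). In HET chow hearts at 31 days the distant value was 4.62 for Gclm (lowest, replicate 7), 5.64 for Gss (lowest, replicate 3) and 5.26 for Txndc5 (lowest, replicate 7). In HET chow hearts at 43 days the distant value was 5.52 for Txnl4a (lowest, replicate 9).

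The genotype difference on chow changed between ages by the interaction term of the limma fit (adjusted p below 0.05). The change at 31 against 21 days was -0.54 for Gpx4, -0.66 for Gstk1, -0.63 for Gstm3, -0.37 for Gstm5, -0.62 for Gsto1, -0.48 for Gstp1, -0.47 for Prdx2, -0.72 for Sod1, -0.59 for Sod2, -0.55 for Txn2 and -0.68 for Txndc9. The change at 43 against 21 days was -0.76 for Gpx4, -2.19 for Gsta4, -1.60 for Gstk1, -0.47 for Gstm1, -1.004 for Gstm2, -0.91 for Gstm3, -0.62 for Gstm5, -0.58 for Gsto1, -0.78 for Gstp1, -1.05 for Gstt1, -0.91 for Gstz1, -2.22 for Mgst3, -0.66 for Prdx2, -0.84 for Prdx3, -1.28 for Sod1, -0.79 for Sod2, -0.83 for Txn2, 1.32 for Txndc5, -0.58 for Txnip and -1.004 for Txnl4a.

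The effect of probucol differed between dKO and HET hearts by the same kind of test. The effect in dKO hearts minus that in HET hearts was -0.62 for Gclc, 0.49 for Gpx4, 1.52 for Gsta4, 0.93 for Gstk1, 0.45 for Gstm3, 0.34 for Gstm5, 1.31 for Mgst3, 0.30 for Prdx2, 0.64 for Prdx3, 0.47 for Sod2, -0.41 for Sod3 and 0.50 for Txnip.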

How the results depend on the processing

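Counts of called genes were within 1.5 times the reported count in 224 of the fits run and outside it in 21. For dKO against HET hearts on chow at 21 days, reported as 1, the count was 0 with signals as deposited, 2 without the filter, 0 with probe sets averaged, 0 with the compared groups alone and 0 within the larger array set. At 31 days, reported as 17, it was 9 as deposited, 11 with the array set as a block and 4 within the larger set. For the change between 21 and 31 days, reported as 11, it was 1 as deposited, 0 after quantile normalisation, 0 with the array set, 0 within the larger set and 18 without 6 arrays far out on the first residual component. For HET chow hearts at 43 against 21 days, reported as 3, it was 15 as deposited and 1 with the compared groups alone. For dKO probucol against HET chow hearts, reported as 2, it was 0 with the compared groups alone, 0 with the array set and 0 within the larger set. For probucol in HET hearts, reported as 5, it was 3 within the larger set. Leaving out each HET probucol heart in turn gave 1 to 6 genes for probucol in HET hearts, 0 to 0 for dKO against HET hearts on probucol, and 10 to 14 for the difference between genotypes; the lone 43-day heart that then remained was assumed to vary like the other groups. The larger-set and far-array fits were chosen after seeing the data, and the cause was not tested. Without centring the all-gene median moved, and some differences turned sign. Besides those named in the Results, they included Cat 0.34 and Txndc16 0.0012 at 43 days, and Gstm5 0.16, Gstp1 0.058 and Prdx2 0.066 between 21 and 31 days. Gstm1 0.089 and Txndc12 0.54 between 21 and 43 days, and Txnl1 -0.015 with probucol at 43 days, turned too. This is not a full list. With the mean of its probe sets Prdx2 turned to -0.056 in the probucol difference between genotypes. With the replicate number as a block the counts were 1, 17 and 29 for the genotype comparisons at 21, 31 and 43 days, 27 for probucol in dKO hearts at 43 days, 7 for probucol in HET hearts and 16 for the difference between genotypes, and the numbers do not pair the mice. Dim probe sets near the floor and groups of 2 or 3 hearts limit what could be called.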
